A study of Mus musculus with 12 samples.

Results

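The interferon-stimulated genes are a set of 37 genes, listed by name, that cells switch on when interferon binds its receptors. Their probes were found by the gene name in the array files, with older names matched through the accession in the same row, and a probe was kept when its signal was well above background on at least 4 of 12 arrays. By this rule 36 of the 37 genes were measured, of 19819 genes in all. The synthetase Oas1g was not, since its probe was well above background on 0 of 12 arrays. Whole lung RNA was compared on 1-colour arrays in 3 groups of 4 mice each. They were Rora mutant mice exposed to cigarette smoke, wild-type (WT) mice exposed to cigarette smoke, and WT mice kept in room air. Smoke was given on 5 days per week for 4 months, while the labels put the age of every mouse at 12 weeks, which is shorter than the exposure. All groups share the C57Bl/6 background, the label male and whole lung as tissue. Rora encodes a nuclear receptor of the circadian clock and of immune cell development. The labels do not name the mutant allele, and Rora mutants in room air were not analysed here. An effect of genotype in general and 1 that appears only under smoke cannot be told apart.

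Type I interferons signal through a receptor whose kinases activate factors of the STAT family, among them STAT2, which join IRF9 and bind interferon-stimulated response elements (ISRE) in DNA. Interferon gamma, made mainly by T cells and NK cells, acts through a receptor of its own and gamma-activated sites (GAS) in DNA. The genes switched on include sensors of viral RNA, proteins that block translation or degrade viral RNA, GTPases that act against viruses and intracellular microbes, and the machinery that prepares peptides for MHC class I. In the lung these genes have a resting level and rise during viral infection. C57BL/6 mice carry a defective Mx1 gene.

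The promoters below show how closely the 2 binding motifs can sit to the start of transcription in members that hold a match. Of the members shown, Oas1a and Rsad2 passed in a comparison below, and Igtp and Irgm1 only without WT smoke replicate 3. The promoters are RefSeq sequences on build GRCm38.p6, 150 bases each, 5′ to 3′ on the strand of the gene, ending just before the annotated start. Capitals mark matches to an ISRE-type motif, searched as GAAA, any 2 bases, GAAA on either strand, and to the GAS motif TTCNNNGAA, whose letters read the same on both strands.
Igtp (chr11:58199406-58199555, plus strand): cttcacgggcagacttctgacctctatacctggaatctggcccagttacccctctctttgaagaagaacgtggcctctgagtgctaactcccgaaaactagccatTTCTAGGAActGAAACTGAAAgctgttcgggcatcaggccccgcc
Irgm1 (chr11:48871421-48871570, minus strand): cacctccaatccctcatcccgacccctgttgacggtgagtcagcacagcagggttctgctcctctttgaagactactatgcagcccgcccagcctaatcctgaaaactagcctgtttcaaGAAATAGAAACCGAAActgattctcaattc
Oas1a (chr5:120907526-120907675, minus strand): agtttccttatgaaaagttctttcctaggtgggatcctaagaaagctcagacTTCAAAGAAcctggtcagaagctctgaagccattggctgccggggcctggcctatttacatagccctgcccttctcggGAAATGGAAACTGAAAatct
Rsad2 (chr12:26456453-26456602, minus strand): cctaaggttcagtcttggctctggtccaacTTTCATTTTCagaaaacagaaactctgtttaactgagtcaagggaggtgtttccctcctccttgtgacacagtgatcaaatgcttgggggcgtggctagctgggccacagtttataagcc
In Igtp a GAS match lay 45 to 37 bases before the start and an ISRE-type match 34 to 25 bases before it. Irgm1 and Oas1a each held 2 overlapping ISRE-type matches, 30 to 15 and 20 to 5 bases before the start. In Rsad2 the single match was on the other strand, 120 to 111 bases before the start. Of the 37 genes, 30 have an entry in the promoter table. In windows of 250 bases before to 50 after a start, the ISRE-type motif was present in 16 of 30 members (53.3%), against 1079 of 27025 genes in the table (3.99%). The GAS motif was present in 9 of 30 members (30.0%), against 9.55% of genes. Ddx58, Stat2, Oas1a and Rsad2 were among those with the ISRE-type motif, and Irf9, Tap1 and Psmb9 had an entry without it. A match is a stretch of letters and not a measured binding site.

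The mutant label was borne out by Rora itself, whose representative probe averaged -1.01 ± 0.10 in Rora mutant smoke, 1.18 ± 0.04 in WT smoke and 1.10 ± 0.04 in WT room air (SD, n = 4 each). Levels here and below are log2 units over the 75th percentile of the array's own signal. Between 70.1% and 74.8% of spots were well above background on each array, and precision is limited by the number of arrays. The sex label was not borne out in 1 group. Xist, the RNA of the inactive X chromosome, read -6.26 to -3.38 in Rora mutant smoke and -8.17 to -3.18 in WT smoke, against 3.97 to 4.13 in WT room air. Signals of Ddx3y, Kdm5d and Uty, which lie on the Y chromosome, exceeded background on every array of both smoke groups and on 0 of 4 room air arrays. Smoke and this sex-linked difference coincide on all arrays, so in both comparisons with room air they cannot be told apart, and no room air array without it can be set beside them. Both smoke groups carry the same sex-linked signal.

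Nearly all members were measured on every array. Irf1, a transcription factor, averaged 4.33 ± 0.17 in Rora mutant smoke, 4.53 ± 0.14 in WT smoke and 4.48 ± 0.06 in WT room air (SD, n = 4 each). The probe of Oas3 averaged -5.96 ± 0.31 in Rora mutant smoke, -5.80 ± 0.27 in WT smoke and -6.10 ± 0.22 in WT room air, and was well above background on 11 of 12 arrays. The other 35 members were well above background on 12 of 12 arrays, and none had a saturated spot. Levels of different probes are not compared, since each probe has its own brightness.

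**Figure D1:**
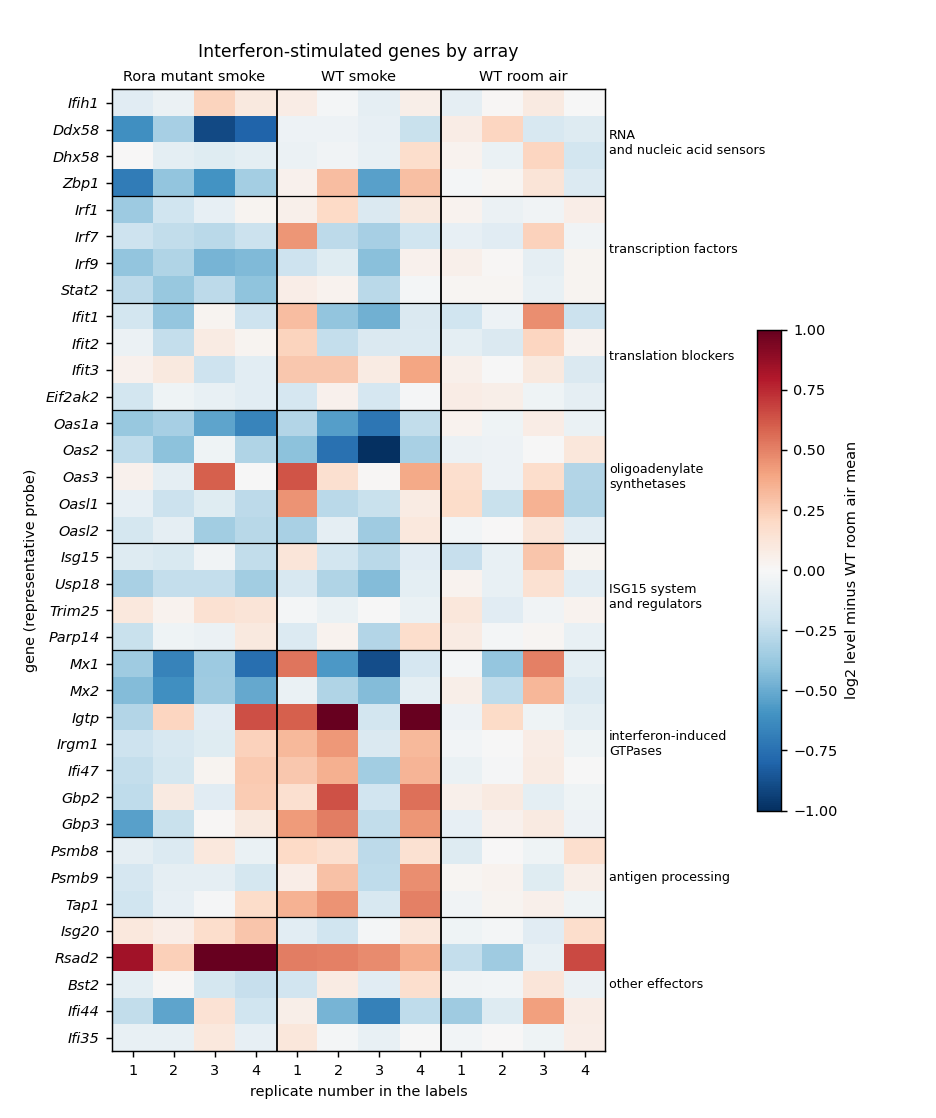
Each cell is a member's level on 1 array minus its mean over the 4 WT room air arrays, in log2 units (colour scale from -1 to 1, larger values at the end colours), with genes grouped by role and arrays by group. Ddx58, Zbp1, Irf9 and Stat2 are blue in all 4 Rora mutant smoke arrays, and WT smoke replicate 3 is bluer than the other WT smoke arrays for the GTPases.

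Few members differed between the WT groups. In WT smoke against WT room air, 0 of 36 members were higher (2.31% of all genes were) and 2 of 36 were lower (2.55% of all genes), the synthetases Oas2 and Oas1a. At an unadjusted p under 0.05, 3 members were higher (7.91% of all genes) and 3 lower (10.4% of all genes) in limma. The median difference was -0.03 log2 units over the members and -0.01 over all genes, and 19 of 36 members were below 0. Leaving out each array in turn moved the median of the members between -0.05 and 0.02. Arrays of both groups did not overlap in 0 members that were higher (5.98% of genes) and in 2 that were lower (6.91% of genes).

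Between the genotypes in smoke, most members lay slightly lower in the mutants, and 1 passed. In Rora mutant smoke against WT smoke, 0 of 36 members were higher (2.48% of all genes) and 1 was lower (3.56% of all genes), the RNA sensor Ddx58. At an unadjusted p under 0.05, 3 were higher (9.52% of all genes) and 10 lower (11.7% of all genes) in limma. Of the 36 members, 28 were below 0 and the median difference was -0.13, against 49.4% of all genes below 0 and a median of 0.00. This median moved to -0.06, with 23 members below 0, without WT smoke replicate 1, and to -0.22, with 30 below 0, without WT smoke replicate 3. Over the 26 members other than GTPases and antigen processing genes it was -0.04. Groups did not overlap in 1 higher member, Trim25 (6.55% of genes), and in 1 lower member, Ddx58 (6.85% of genes).

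More members passed between the mutants in smoke and WT mice in room air, and more of all genes did too. In Rora mutant smoke against WT room air, 1 of 36 members was higher (6.67% of all genes), Rsad2, and 6 were lower (10.0% of all genes): Ddx58, Irf9, Oas1a, Stat2, Mx2 and Usp18. The lower members are 16.7% of the 36. At an unadjusted p under 0.05, 1 member was higher and 7 lower in limma, 22.2% of the 36 against 30.8% of all genes. Of the 36, 30 were below 0 and the median was -0.13, against 51.5% of all genes and a median of -0.01. Without WT room air replicate 3 the median of the members was -0.06. Groups did not overlap in 0 higher members (9.29% of genes) and in 8 lower members (11.7% of genes), the 6 that fell and also Zbp1 and Irf7. Each pair of the 3 comparisons shares 4 arrays, so their values are given side by side and not as independent results.

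**Figure D2:**
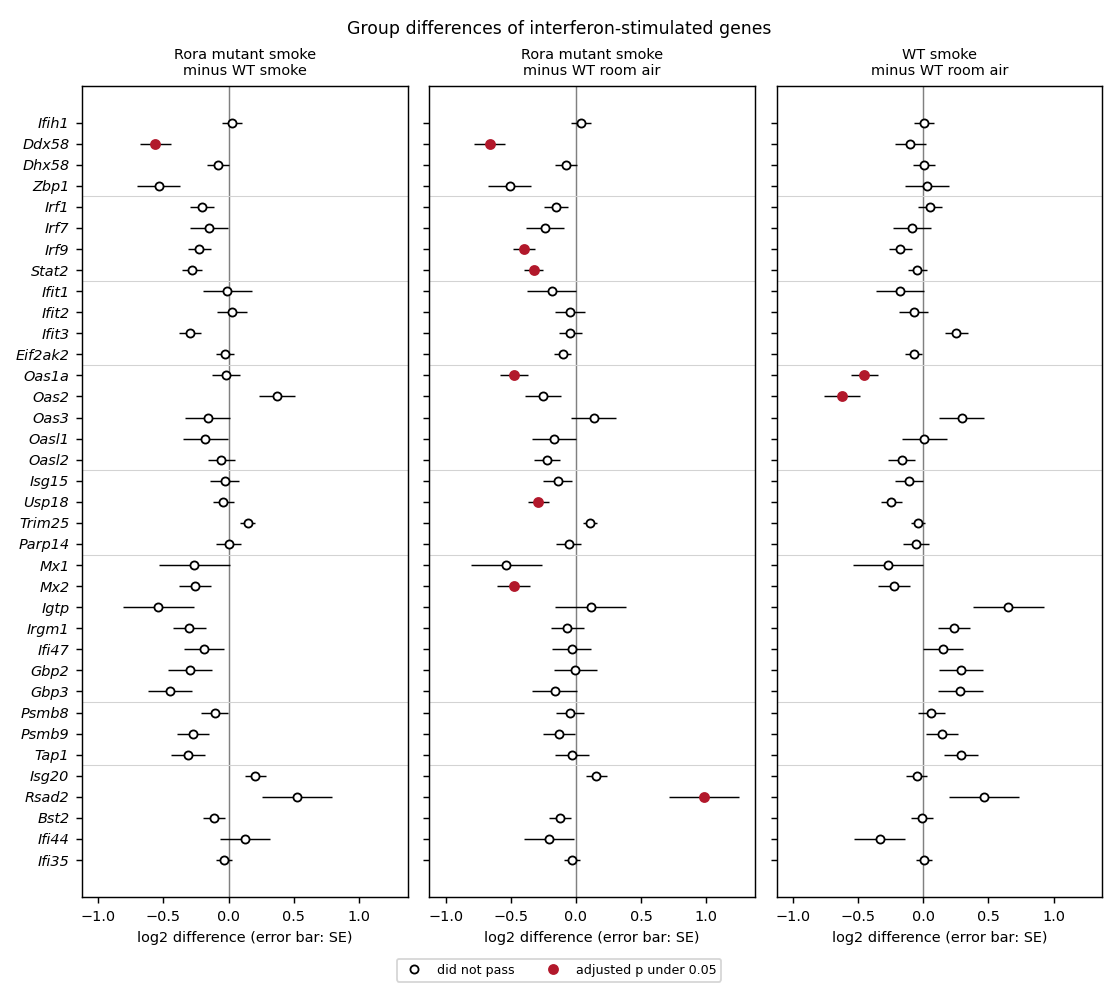
Points are log2 differences of the 36 members in the 3 comparisons, first-named group minus second, with bars of 1 SE, and filled points passed at an adjusted p under 0.05. There is 1 filled point for Rora mutant smoke minus WT smoke, 7 for Rora mutant smoke minus WT room air and 2 for WT smoke minus WT room air, and the GTPases and antigen processing genes lie left of 0 in the comparison of Rora mutant smoke with WT smoke.

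Among the sensors, Ddx58, which encodes the cytosolic viral RNA sensor RIG-I, was low in the mutants. It read -0.29, -0.01, -0.58 and -0.48 in Rora mutant smoke, 0.27, 0.27, 0.24 and 0.10 in WT smoke, and 0.40, 0.53, 0.17 and 0.20 in WT room air. Every mutant array was below every WT array. It fell by 0.56 ± 0.12 log2 units (SE, n = 4 each; limma adjusted p = 0.0209) against WT smoke and by 0.66 ± 0.12 (adjusted p = 0.00359) against WT room air. Within the 3 slides the difference from WT smoke was -0.57, -0.20 and -0.77, each resting on 1 or 2 arrays a group.

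The 4 probes of Ddx58 did not all show this. The representative probe, the brightest, lies on chromosome 4 at 40398556 to 40398615 of mouse build mm8, as the files place it. The probe at 40418166 to 40418225 differed by -0.38 between Rora mutant smoke and WT smoke, and the probes at 40394480 to 40394539 and 40392771 to 40392830 by 0.07 and -0.04. With the mean over all kept probes in place of the brightest one, the calls against WT smoke and against WT room air were lost. The call against WT smoke was also lost without Rora mutant smoke replicate 4 and without WT smoke replicate 1, 2 or 3 (difference -0.56, adjusted p = 0.0523 without replicate 3).

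**Figure D3:**
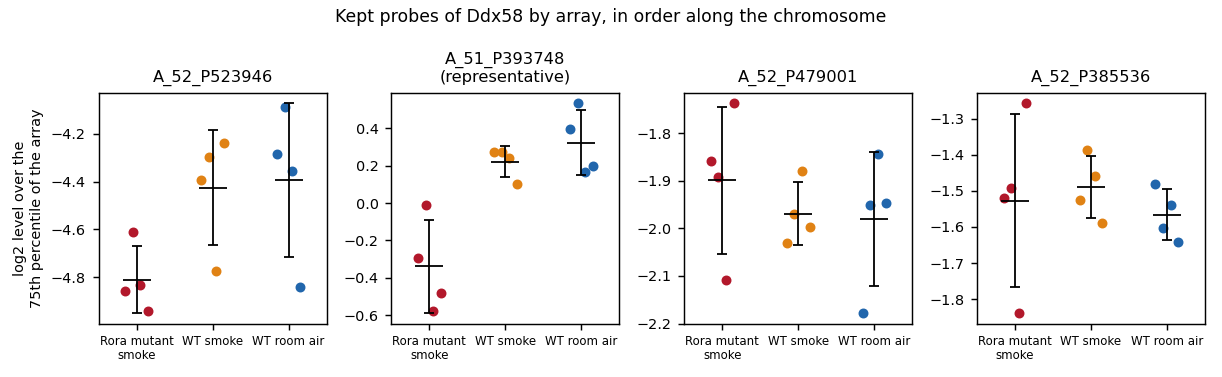
Levels of the 4 kept Ddx58 probes (log2 units over the 75th percentile of the array), from the highest to the lowest position on chromosome 4, with 1 point per array and bars for the mean and SD of 4 arrays. In the representative probe all 4 Rora mutant smoke points lie below all WT points, while in the panels at the right the groups overlap.

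Zbp1, a sensor of left-handed nucleic acids that triggers cell death, read -0.86, -0.56, -0.75 and -0.50 in Rora mutant smoke, -0.11, 0.15, -0.70 and 0.14 in WT smoke, and -0.18, -0.14, -0.03 and -0.29 in WT room air. The mutants lay below 3 of the 4 WT smoke arrays and below every room air array. The difference of -0.54 ± 0.17 from WT smoke did not pass (adjusted p = 0.0827), nor did -0.51 ± 0.17 from WT room air (adjusted p = 0.057). Without WT smoke replicate 3, at -0.70, both passed (-0.73 and -0.51; adjusted p = 0.00632 and 0.00664). The difference from WT room air also passed in 2 other settings. The sensors Ifih1, which encodes MDA5, and Dhx58, which encodes LGP2, did not pass in any comparison. Their brightest probes had differences between -0.08 and 0.04. A dimmer probe of Ifih1 differed in the mutants by -0.21 from WT smoke and by -0.26 from WT room air, and did not pass either.

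The transcription factors that carry the type I interferon signal, Stat2 and Irf9, were lower in the mutants than in WT room air. Stat2 read 1.64, 1.52, 1.64 and 1.499 in Rora mutant smoke, 1.97, 1.94, 1.63 and 1.88 in WT smoke, and 1.92, 1.92, 1.83 and 1.93 in WT room air. Only WT smoke replicate 3 reached into the range of the mutants. Stat2 fell by 0.33 ± 0.07 (SE) against WT room air (limma adjusted p = 0.0128), and its difference of -0.28 ± 0.07 from WT smoke just missed the threshold (adjusted p = 0.0502). The difference from WT smoke passed in 5 of 22 other settings, which were the authors' value table (adjusted p = 0.0436), quantile normalization (0.0446), the filter on all 12 arrays (0.0428), the mean over probes (0.0498) and the loss of WT smoke replicate 3.

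Irf9, the DNA-binding partner of the STAT pair, read 0.95, 1.05, 0.89 and 0.91 in Rora mutant smoke, 1.14, 1.23, 0.93 and 1.39 in WT smoke, and 1.40, 1.36, 1.26 and 1.37 in WT room air. All mutant arrays were below all room air arrays. Of the WT smoke arrays, replicates 1 and 2 lay between those groups, replicate 3 lay among the mutants and replicate 4 within the room air range. It fell by 0.40 ± 0.09 against WT room air (adjusted p = 0.00889), and the difference from WT smoke was -0.22 ± 0.09 (adjusted p = 0.155). Without WT smoke replicate 3, both genes passed against WT smoke as well, Stat2 at -0.36 (adjusted p = 0.0121) and Irf9 at -0.30 (adjusted p = 0.0451).

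Irf7, which amplifies interferon production, read -1.66 to -1.60 in Rora mutant smoke, -1.73 to -0.95 in WT smoke and -1.51 to -1.16 in WT room air. The mutants spread over only a narrow range, below all room air arrays, with a difference of -0.23 that did not pass (adjusted p = 0.31). Irf1, a factor induced by interferon gamma, differed by -0.20 from WT smoke (adjusted p = 0.224).

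No translation blocker passed in any comparison by its brightest probe. Ifit3, of a family that binds foreign RNA, read 2.88, 2.93, 2.63 and 2.73 in Rora mutant smoke, 3.103, 3.104, 2.92 and 3.23 in WT smoke, and 2.88, 2.83, 2.94 and 2.69 in WT room air. WT smoke had the highest values, with replicate 3 overlapping both other groups. Ifit3 differed by -0.30 ± 0.09 between Rora mutant smoke and WT smoke (adjusted p = 0.0672) and by 0.25 ± 0.09 between WT smoke and WT room air (adjusted p = 0.129). Mice have a close copy, Ifit3b, whose RNA this probe may also bind. Ifit1, Ifit2 and Eif2ak2, the kinase PKR that halts translation when it binds double-stranded RNA, had differences between -0.19 and 0.03, none of which passed. A second probe of Ifit2 differed by -0.38 between Rora mutant smoke and WT smoke, where the brightest probe differed by 0.03. Against WT room air this second probe fell by 0.49 in Rora mutant smoke (adjusted p = 0.0445 over all probes).

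The oligoadenylate synthetases, which make the second messenger that activates RNase L, held the 2 members that passed in WT smoke against WT room air. Oas2 read -1.96, -2.12, -1.75 and -2.01 in Rora mutant smoke, -2.11, -2.45, -2.72 and -2.03 in WT smoke, and -1.76, -1.75, -1.71 and -1.59 in WT room air. All WT smoke arrays were below all room air arrays. Oas2 fell by 0.63 ± 0.14 (SE) in WT smoke against WT room air (limma adjusted p = 0.0258), and within slides the differences were -0.44, -0.48 and -1.02. The mutants were not below WT smoke, with a difference of 0.37 ± 0.14 that did not pass (adjusted p = 0.14).

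Oas1a read -0.72, -0.67, -0.86 and -0.997 in Rora mutant smoke, -0.64, -0.89, -1.06 and -0.59 in WT smoke, and -0.30, -0.38, -0.27 and -0.41 in WT room air. Both smoke groups were below room air on every array and overlapped each other. It fell by 0.47 ± 0.11 in Rora mutant smoke (adjusted p = 0.0109) and by 0.45 ± 0.11 in WT smoke (adjusted p = 0.0327), each against WT room air, and the difference between the smoke groups was -0.02 ± 0.11 (adjusted p = 0.944). Oas1a has several close copies, so its probe may bind their RNA too. In WT smoke against WT room air, both synthetase calls were lost when any 1 room air array or WT smoke replicate 2 was left out. Oas1a also lost its call without WT smoke replicate 3 (adjusted p = 0.0702), and Oas2 with the slide as a block (adjusted p = 0.0623). Oas3, Oasl1 and Oasl2 did not pass in any comparison and differed by -0.22 to 0.30.

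Isg15, the ubiquitin-like protein that is attached to other proteins during the response, averaged 0.24 ± 0.08 in Rora mutant smoke, 0.27 ± 0.17 in WT smoke and 0.38 ± 0.22 in WT room air (SD, n = 4 each). The groups overlapped and no comparison passed. The files place its probe on chromosome 17, at 45870420 to 45870479 of mm8, whereas RefSeq lists Isg15 on chromosome 4. Usp18, which removes ISG15 and dampens receptor signalling, read 0.41, 0.49, 0.49 and 0.38 in Rora mutant smoke, 0.57, 0.42, 0.30 and 0.63 in WT smoke, and 0.76, 0.65, 0.88 and 0.62 in WT room air.

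All 4 mutant arrays were below all room air arrays for Usp18. It fell by 0.29 ± 0.08 (SE) in Rora mutant smoke against WT room air (limma adjusted p = 0.0313), but the call was lost with the slide as a block (adjusted p = 0.0634) and without Rora mutant smoke replicate 1 or 4, or WT room air replicate 1 or 3. The difference of -0.25 ± 0.08 between WT smoke and WT room air did not pass (adjusted p = 0.115). Trim25, the ligase that ubiquitinates RIG-I, lay above WT smoke on every mutant array, at 2.87 to 3.00 in Rora mutant smoke against 2.77 to 2.83 in WT smoke. Its difference of 0.15 ± 0.06 did not pass (adjusted p = 0.154). Parp14 differed by 0.00 between Rora mutant smoke and WT smoke in its brightest probe and by -0.50 in a dimmer one (adjusted p = 0.0123 over all probes).

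**Figure D4:**
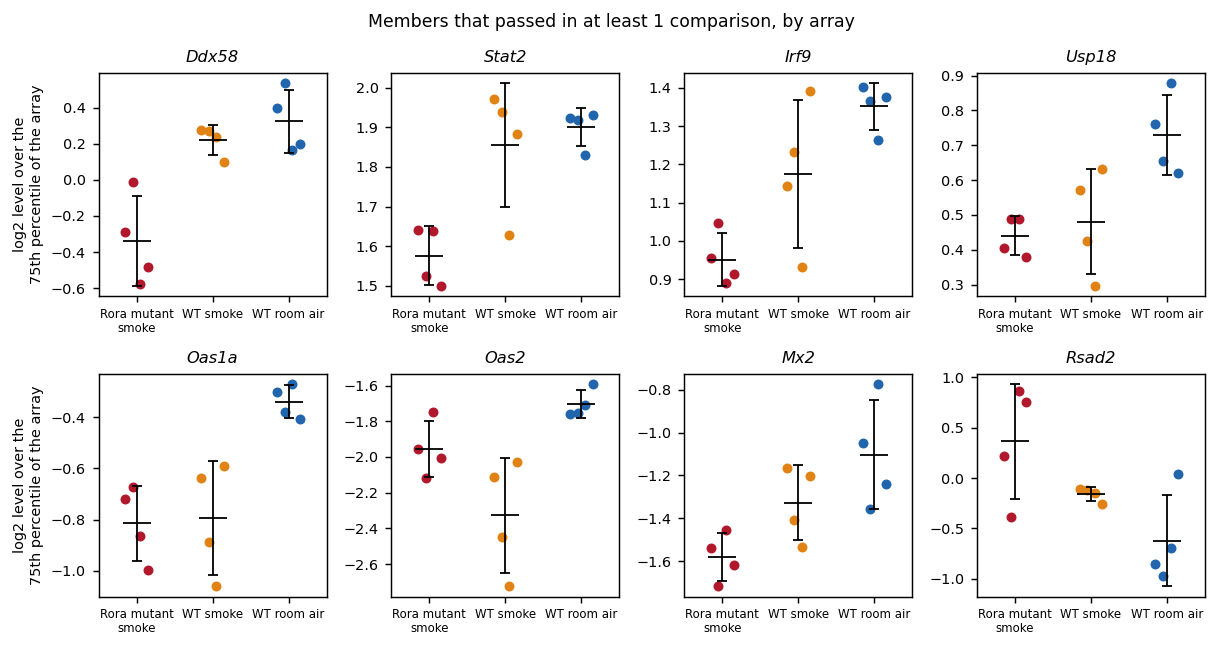
Levels of the 8 members that passed in at least 1 comparison (log2 units over the 75th percentile of the array), with 1 point per array and bars for the mean and SD of 4 arrays. Oas1a is low in both smoke groups against WT room air, whereas Ddx58 is low in Rora mutant smoke against both WT groups.

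The interferon-induced GTPases were all below 0 between the genotypes in smoke, although none of the 7 passed. Their median difference in Rora mutant smoke against WT smoke was -0.29, against 0.00 over all genes. At an unadjusted p under 0.05, 2 of the 7 were lower in limma, Gbp3 and Irgm1 (11.7% of all genes were). Igtp, of the defence against intracellular parasites, read 2.35, 2.85, 2.53 and 3.29 in Rora mutant smoke, 3.24, 3.74, 2.46 and 3.75 in WT smoke, and 2.59, 2.83, 2.60 and 2.54 in WT room air. WT smoke was higher than room air on 3 arrays and lower on the fourth, replicate 3. The difference between WT smoke and WT room air was 0.65 ± 0.27 (adjusted p = 0.222).

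Gbp3, a guanylate-binding protein of the same defence, read 1.30, 1.62, 1.85 and 1.94 in Rora mutant smoke, 2.27, 2.35, 1.60 and 2.28 in WT smoke, and 1.76, 1.88, 1.93 and 1.79 in WT room air. Of the WT smoke arrays, only replicate 3 overlapped the mutants, whereas for Igtp replicate 1 did so too. The difference from WT smoke was -0.45 ± 0.17 (adjusted p = 0.153). Irgm1, Ifi47 and Gbp2 had differences of -0.30, -0.19 and -0.29 between Rora mutant smoke and WT smoke, with the same array lowest in WT smoke for each.

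The Mx GTPases followed another pattern. Mx2 read -1.54, -1.72, -1.46 and -1.62 in Rora mutant smoke, -1.17, -1.41, -1.53 and -1.20 in WT smoke, and -1.05, -1.36, -0.77 and -1.24 in WT room air. All mutant arrays were below all room air arrays. WT smoke overlapped the mutants at replicate 3 and room air at replicates 1 and 4. Mx2 fell by 0.48 ± 0.12 in Rora mutant smoke against WT room air (adjusted p = 0.0225). This call was lost in 4 of 22 other settings, among them without Rora mutant smoke replicate 2 or 4 and without WT room air replicate 1. Mx1 differed by -0.53 ± 0.27 in the same comparison (adjusted p = 0.209).

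Among the antigen processing genes, Tap1 and Psmb9 resembled Igtp and Gbp3, and Psmb8 did so less clearly. Tap1, which pumps peptides into the endoplasmic reticulum, read -0.65, -0.53, -0.46 and -0.26 in Rora mutant smoke, -0.10, 0.01, -0.60 and 0.06 in WT smoke, and -0.48, -0.41, -0.40 and -0.49 in WT room air. In WT smoke, 3 arrays lay above all others and replicate 3 lay near the lowest mutant. The difference was -0.31 ± 0.13 between Rora mutant smoke and WT smoke (adjusted p = 0.189) and 0.29 ± 0.13 between WT smoke and WT room air (adjusted p = 0.271). The immunoproteasome subunit Psmb9 differed by -0.27 between the smoke groups (adjusted p = 0.227) and Psmb8 by -0.11. WT smoke replicates 1, 2 and 4 of Psmb8 read 3.77, 3.73 and 3.72, which overlapped WT room air at 3.44 to 3.74.

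One array weighed on these values. WT smoke replicate 3 was the lowest of its group for 28 of 36 members, and it shares slide 3 with WT room air replicate 3, the highest of its group for 21 of 36. Without WT smoke replicate 3, 7 members fell in Rora mutant smoke against WT smoke (1.97% of all genes did): Zbp1, Stat2, Irf9, Gbp3 (-0.63, adjusted p = 0.0307), Irgm1 (-0.43, adjusted p = 0.0414), Tap1 (-0.46, adjusted p = 0.0199) and Psmb9 (-0.40, adjusted p = 0.0369). In WT smoke against WT room air, Igtp (0.93, adjusted p = 0.0388) and Tap1 (0.43, adjusted p = 0.0213) then rose (1.51% of all genes did). The labels give no reason to leave this array out. Ifng, interferon gamma itself, was also lowest there, at -4.49 against -3.54, -3.54 and -3.43 on the other WT smoke arrays. The mean of 9 NK cell markers, relative to WT room air, was -0.61 on this array and -0.01, -0.08 and 0.12 on the others. The array was also the lowest of its group for T cell (-0.42), B cell (-0.15) and inflammatory monocyte markers (-0.24). For dendritic cell markers it was lowest only by a little, plasmacytoid at -0.318 (next array -0.281) and classical at -0.308 (next array -0.307). It was not the lowest for alveolar macrophage (0.12) or neutrophil markers (-0.12). The part of Ifng and of these cell types in the result was not tested. In whole lung, fewer cells of a type cannot be told apart from less RNA per cell.

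**Figure D5:**
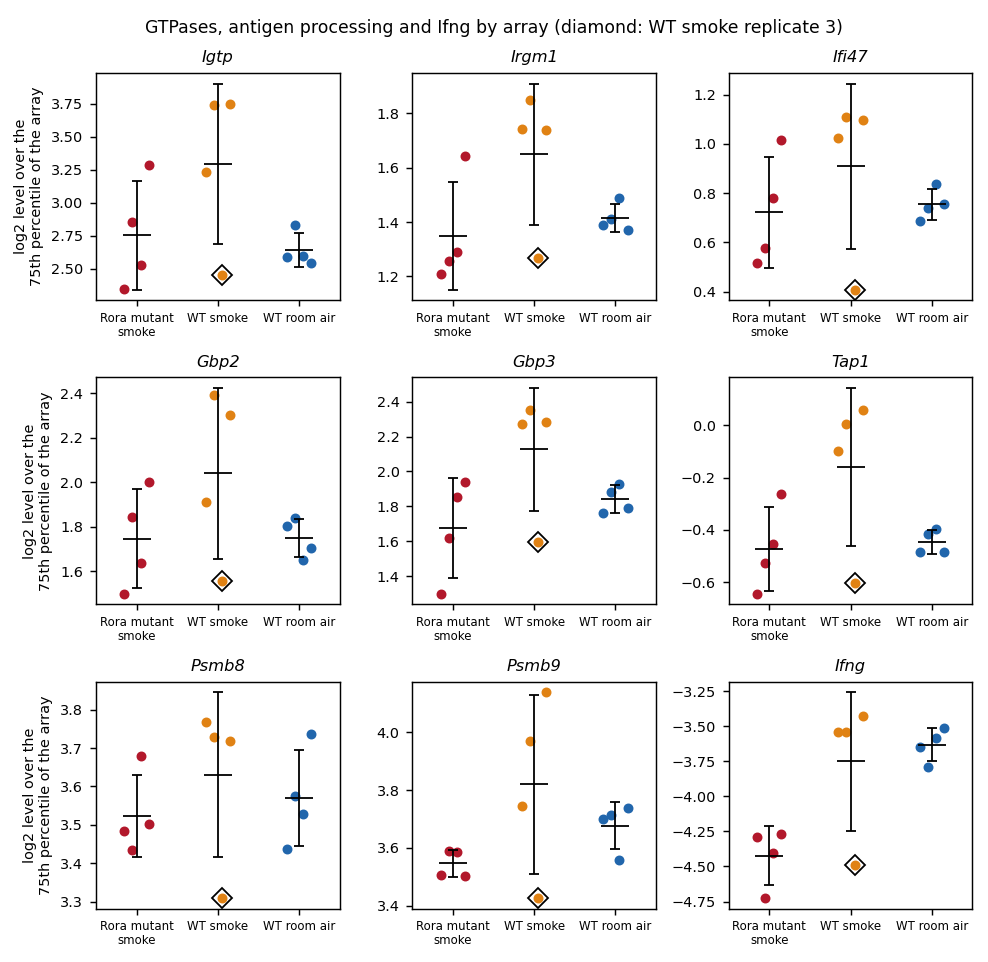
Levels of 5 GTPases, 3 antigen processing genes and Ifng (log2 units over the 75th percentile of the array), with 1 point per array and bars for the mean and SD of 4 arrays. The diamond marks WT smoke replicate 3, the lowest WT smoke array in every panel.

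Of the remaining effectors, Rsad2 alone rose. Rsad2 encodes viperin, an enzyme that makes a chain-terminating nucleotide. It read 0.22, -0.38, 0.86 and 0.76 in Rora mutant smoke, -0.11, -0.12, -0.15 and -0.26 in WT smoke, and -0.86, -0.97, -0.69 and 0.04 in WT room air. WT smoke was tight, while the other groups were wide and overlapped at mutant replicate 2 and room air replicate 4. Rsad2 rose by 0.99 ± 0.27 (SE) in Rora mutant smoke against WT room air, or 1.98-fold (limma adjusted p = 0.0277), and its other probes differed by 0.66 and 0.79.

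The call of Rsad2 was lost in 8 of 22 other settings, among them without Rora mutant smoke replicate 3 or 4 and without WT room air replicate 1, 2 or 3. Against WT smoke the difference was 0.52 ± 0.27 (adjusted p = 0.293). The exonuclease Isg20 differed by 0.21 between Rora mutant smoke and WT smoke (adjusted p = 0.172). Bst2, the tether that holds budding virus on the cell, Ifi44 and Ifi35 did not pass in any comparison and differed by -0.34 to 0.13.

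The rest of the interferon pathway was described from lists of its other genes. Of 19 ligand genes, 5 were measured. Ifng read -4.29, -4.73, -4.41 and -4.27 in Rora mutant smoke, -3.54, -3.54, -4.49 and -3.43 in WT smoke, and -3.64, -3.79, -3.58 and -3.51 in WT room air. It fell by 0.79 ± 0.20 (SE) against WT room air (limma adjusted p = 0.0213), and the difference from WT smoke was -0.67 ± 0.20 (adjusted p = 0.0764). The call against WT room air was lost with the slide as a block and without Rora mutant smoke replicate 2 or WT room air replicate 4. The type I interferon Ifna9, whose family members are alike in sequence, fell in both smoke groups against WT room air, by 0.43 in Rora mutant smoke (adjusted p = 0.0172) and by 0.46 in WT smoke (adjusted p = 0.0324). The WT smoke call was lost in 10 of 22 other settings, among them without WT smoke replicate 2 or 3 and without WT room air replicate 1, 2 or 4.

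Of 15 genes of the receptors and JAK-STAT signalling, 1 was higher (2.48% of all genes) and 2 lower (3.56% of all genes) in Rora mutant smoke against WT smoke. Socs1, the feedback inhibitor of JAK kinases, read 0.30, 0.35, 0.36 and 0.06 in Rora mutant smoke, 0.56, 0.85, 0.86 and 0.92 in WT smoke, and 0.90, 0.79, 0.90 and 1.06 in WT room air. Every mutant array was below every WT array. Socs1 fell by 0.53 ± 0.10 against WT smoke (adjusted p = 0.0102) and by 0.64 ± 0.10 against WT room air (adjusted p = 0.00118). The related inhibitor Socs3 fell by 0.26 (adjusted p = 0.0456) and the kinase Tyk2 rose by 0.22 (adjusted p = 0.0499) against WT smoke, calls that were lost in 19 and 18 of 22 other settings. Stat3 fell by 0.26 in Rora mutant smoke against WT room air (adjusted p = 0.0309), a call lost in 11 settings.

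Of 21 genes of interferon induction, 0 passed in limma between Rora mutant smoke and WT smoke and 0 between WT smoke and WT room air. At an unadjusted p under 0.05 there were 2 (9.52%, against 21.2% of all genes) and 5 (23.8%, against 18.3% of all genes). Against WT room air, 2 of the 21 fell in Rora mutant smoke (10.0% of all genes did) and 1 rose (6.67% of all genes). Irf5 (-0.40, adjusted p = 0.00589) and Irf4 (-0.53, adjusted p = 0.0168), transcription factors of immune cells, fell, and the RNA sensor Tlr7 rose (0.24, adjusted p = 0.0345). The call of Tlr7 was lost in 9 of 22 other settings, among them leaving out any one of 3 mutant arrays or 3 room air arrays.

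Of 62 further interferon-stimulated genes, 0 passed in WT smoke against WT room air. There 11 had an unadjusted p under 0.05 in limma (17.7%, against 18.3% of all genes). Against WT smoke, 2 of the 62 fell in Rora mutant smoke (3.56% of all genes did), Trim30a (-0.41 ± 0.08, adjusted p = 0.0154) and the guanylate-binding protein Gbp5 (-0.73 ± 0.18, adjusted p = 0.0391). Gbp5 read -0.58, -0.24, -0.16 and -0.16 in Rora mutant smoke, 0.69, 0.61, -0.19 and 0.65 in WT smoke, and -0.24, 0.15, -0.07 and -0.04 in WT room air. It repeats the pattern of Gbp3, with replicate 3 low in WT smoke, and lost its call in 14 of 22 other settings. Against WT room air, 1 of the 62 rose (6.67% of all genes did) and 4 fell (10.0% of all genes) in Rora mutant smoke. Ly6a rose by 0.25, while Trim30a (-0.69), Ifi204 (-0.36), Ifitm1 (-0.31) and the T cell chemoattractant Cxcl9 (-1.60) fell. The calls of Ly6a, Ifitm1 and Cxcl9 were lost in 6, 10 and 15 of 22 other settings, leaving out single mutant and room air arrays among them. Those of Trim30a against WT smoke and of Ifi204 were lost with the mean over all their probes.

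Markers of some other cell types differed between the mutants and the WT groups. Of 10 measured alveolar macrophage markers, 5 were higher in Rora mutant smoke than in WT smoke (2.48% of all genes were) and 8 higher than in WT room air (6.67% of all genes). Their summed level, in multiples of the 75th percentile of the array, was 131.4 to 201 in Rora mutant smoke, 97.3 to 108.3 in WT smoke and 94.4 to 104.6 in WT room air. Plasmacytoid dendritic cells make much type I interferon. Of their 8 markers, 1 was lower in the mutants than in WT smoke (3.56% of all genes were) and 3 lower than in WT room air (10.0% of all genes). The sums, in which bright markers weigh most, were 19.6 to 22.5 in Rora mutant smoke, 19.6 to 21.8 in WT smoke and 21.3 to 24.0 in WT room air. Single markers went both ways against WT smoke, with 6 of the 8 below 0 and 2 above 0, from -0.81 to 0.40. Groups did not overlap in 1 higher marker (6.55% of genes) and in 1 lower marker (6.85% of genes). The mean log2 levels of these markers, relative to WT room air, did not overlap between genotypes. They were -0.70 to -0.35 in Rora mutant smoke, -0.32 to -0.14 in WT smoke and -0.13 to 0.19 in WT room air. Of 6 ciliated cell markers, all 6 were below 0 in both comparisons of the mutants. Of them, 1 was lower against WT smoke (3.56% of all genes were) and 4 against WT room air (10.0% of all genes). Their sums did not overlap between genotypes, at 24.8 to 25.8 in Rora mutant smoke, 26.6 to 34.3 in WT smoke and 31.2 to 33.0 in WT room air. Their mean log2 levels did overlap, at -0.43 to -0.34 in Rora mutant smoke and -0.36 to 0.07 in WT smoke. Of 7 measured neutrophil markers, 1 was lower in the mutants than in WT smoke (3.56% of all genes were) and 2 lower than in WT room air (10.0% of all genes). Their sums were 8.97 to 15.5 in Rora mutant smoke, 13.5 to 18.2 in WT smoke and 10.1 to 21.7 in WT room air. Of 13 T cell markers, none passed in limma against WT smoke (0 at an unadjusted p under 0.05, against 21.2% of all genes). Against WT room air, 2 of the 13 were lower in the mutants (10.0% of all genes were). Their sums were 6.98 to 10.3 in Rora mutant smoke, 7.49 to 9.52 in WT smoke and 9.16 to 13.9 in WT room air. Of 9 NK cell markers, none passed in limma in any comparison. Of the 9, 1 had an unadjusted p under 0.05, in Rora mutant smoke against WT room air (30.8% of all genes did). Their sums were 1.34 to 2.04 in Rora mutant smoke, 1.26 to 2.13 in WT smoke and 1.71 to 2.09 in WT room air. In the remaining lists, 1 of 7 endothelial cell markers was lower in the mutants than in WT smoke (3.56% of all genes were). Against WT room air, 1 of 6 inflammatory monocyte and 2 of 6 alveolar type 1 cell markers were higher in the mutants (6.67% of all genes were). In that comparison 1 of 8 classical dendritic, 1 of 7 alveolar type 2 and 1 of 7 endothelial cell markers were lower (10.0% of all genes were). No B cell or club cell marker passed in either comparison. All of these measured markers were well above background on 12 of 12 arrays, and their part in the values of the interferon-stimulated genes was not tested.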

How the data were processed

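Lung RNA was labelled with Cy3 and hybridised to 12 Agilent arrays on 3 slides of 4 arrays, each slide holding all 3 groups. Per the file headers and the submitters' processing notes, the authors extracted the spots with Agilent Feature Extraction 9.5.3.1, and the processed signal is a linear intensity after background subtraction within the array. The flags for background, saturation and outliers are other values of 0 or 1, as deposited. The authors' deposited value table holds log2 values. Each of its columns correlated with the processed signal of its array at 0.99952 or above, and the columns share a median of 6.79, as quantile normalization gives.

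Spots were averaged to 41174 probes from 43379 non-control spots, after outlier spots were removed. The processed signal was divided by the 75th percentile of its array and taken to log2. A probe was kept (30189 were) when it was well above background on at least 4 arrays and had a value on 3 or more arrays per group. The brightest kept probe stood for each of 19819 genes. A bright-probe rule, and a dim probe's near-background signal, can both change a fold. One limma model (limma 3.58.1, R 4.3.3, with the data.table package, version 1.17.8) with a mean per group was fitted to all 12 arrays, and p-values were adjusted by Benjamini-Hochberg over all genes (threshold 0.05, two-sided). The fit was tested on simulated data. Gene names were updated through RefSeq (GRCm38.p6); older names stood for Irf9 (Isgf3g), Irgm1 (Irgm) and Dhx58 (D11Lgp2e). Figures used matplotlib 3.10.9, pandas 2.3.3 and Python 3.11.15.

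Members and lists were chosen with earlier results of these data known. Named members are those that passed, or those with the smallest p up to 6 per comparison; of each other list, up to 6 that passed. Further members are named outside this rule, after their values were seen. The alternatives were normexp (offset 50), the authors' table, quantile normalization, median centring, other filters, slide and replicate blocks, only the groups compared, the mean over probes and each array left out in turn. The labels call arrays biological replicates. A gene of the receptor and signalling list is not reported here and was left out of its counts.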

Additional observations from a re-analysis of the deposited data

Results flagged for a closer look

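In 8 of 108 sets of 4 arrays (36 members in 3 groups), 1 array stood apart from the other 3 by Dixon's test. Chance alone gives about 1 in 20. WT smoke replicate 3 was low for Ifi47 (0.4069, against 1.02 to 1.11 on the other WT smoke arrays), Gbp3 (1.598, against 2.27 to 2.35) and Psmb8 (3.309, against 3.72 to 3.77). WT room air replicate 3 was low for Stat2 (1.829) and high for Bst2 (4.357). Dhx58 was high on Rora mutant smoke replicate 1 (-0.5808) and on WT smoke replicate 4 (-0.4087). Ifi35 was high on Rora mutant smoke replicate 3 (2.387).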

How the results depend on the processing

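For the 19 results of members named by the rule, 358 values under the other settings kept their direction and side of the threshold, 51 no longer passed, 9 newly passed and none turned. Over all members, 12 of 98 results that did not pass did so in at least 1 other setting, among them Parp14 (Rora mutant smoke against WT room air) and Trim25 (against WT smoke) with the mean over probes. Normexp left 0 members lower in WT smoke against WT room air, 0 in Rora mutant smoke against WT smoke, and 0 lower and 0 higher in Rora mutant smoke against WT room air. Over all genes it left 40 higher and 13 lower, 12 and 16, and 89 and 92 in the same comparisons, where the setting used here gave 457 and 506, 491 and 706, and 1322 and 1990. It turned Irf4 (0.0805) and Ifna9 (0.0799) in Rora mutant smoke against WT room air. Without the filter on dim probes, 0 members were lower and 294 genes higher and 270 lower in WT smoke against WT room air, 297 higher and 390 lower in Rora mutant smoke against WT smoke, and 0 members higher in Rora mutant smoke against WT room air. With only the 2 groups compared these were 0 members lower, 410 genes lower and 0 members higher. The slide block left 1 member and 335 genes lower in WT smoke against WT room air. The labels state no pairing of same-numbered samples, although replicates 1, 2 and 3 of every group lay on slides 1, 2 and 3. Deviations of same-numbered samples from their group means correlated at -0.10 to 0.22. The replicate block gave 0 members and 332 genes lower in WT smoke against WT room air. It ended the call of Usp18 in Rora mutant smoke against WT room air (adjusted p = 0.0716). In Rora mutant smoke against WT smoke, 2 members, Ddx58 and Stat2, were lower with the authors' table, quantile normalization or the filter on all 12 arrays, and 1 was higher with the mean over probes. Median centring gave 1857 higher and 1663 lower genes in Rora mutant smoke against WT room air, where the scaling used here gave 1322 and 1990. Leaving out each array in turn gave 0 to 2 members lower and 0 to 2 higher in WT smoke against WT room air (all genes 275 to 461 higher, 264 to 504 lower), 0 to 7 lower and 0 higher in Rora mutant smoke against WT smoke (280 to 464 higher, 297 to 732 lower), and 4 to 7 lower and 0 to 1 higher in Rora mutant smoke against WT room air (880 to 1262 higher, 1342 to 1965 lower). The cause of these changes was not tested. Signal over background limits Oas3, well above background on 11 of 12 arrays, and Oas1g, on 0 of 12.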
